A study of Mus musculus with 20 samples.

Results

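The 10 genes described here are Epo, which encodes the hormone erythropoietin, and 9 genes of the cellular oxygen sensor: the hypoxia-inducible factor (HIF) subunits Hif1a, Epas1, Hif3a and Arnt, the prolyl hydroxylases Egln1, Egln2 and Egln3, the asparaginyl hydroxylase Hif1an, and Vhl. They were chosen by gene symbol, and all 10 were found among the 55486 genes listed in the kidney and in the bone marrow count tables. Oxaliplatin is a platinum chemotherapy drug that binds DNA. The samples came from C57BL/6 mice with no transgene or deletion named, aged 10 weeks at the start. The methods name males and females, but the sex-linked transcripts of all 20 libraries, given below, had the pattern of males. The vehicle group received 5% dextrose and the oxaliplatin group 10 mg/kg oxaliplatin in 5% dextrose, by weekly intraperitoneal injection for 8 weeks. Bulk RNA-seq gave 5 libraries for each tissue and treatment, 20 in all. The marrow of femur and tibia was harvested 6 days past the final injection, and the sources used here do not describe how the kidneys were collected.

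In oxygenated cells the EGLN enzymes hydroxylate the HIF alpha subunits on prolines, VHL recognises the hydroxylated protein and marks it for destruction, and HIF1AN (also called FIH) hydroxylates an asparagine that blocks the binding of coactivators. When oxygen is scarce these reactions slow, the alpha subunit pairs with ARNT and binds DNA at hypoxia response elements with the core ACGTG or GCGTG. This control acts mostly on the protein, so the mRNA of an alpha subunit is not a measure of HIF activity. EPAS1 (HIF-2 alpha) drives Epo in the interstitial fibroblasts and pericytes of the adult kidney, and erythropoietin in turn keeps erythroid precursors of the marrow alive.

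Depth and library quality left the members other than Epo well measured. Total counts ranged from 24393007 to 30925430 per kidney library and from 30660153 to 41140527 per marrow library. Kidney libraries carried the proximal tubule markers, 14989.6 to 21136.3 CPM (counts scaled to library size) summed over 9 genes, and marrow libraries the neutrophil markers, 9731.2 to 27442.9 CPM summed over 9 genes. The first principal component separated the treatments in both tissues. The libraries that lay apart were kidney oxaliplatin replicate 5, the farthest on that component, and marrow oxaliplatin replicate 3, with the lowest correlation with its own group (median r = 0.960). All 20 libraries had the Y-linked Ddx3y at 23.0 to 57.6 CPM with Xist at or under 2.88 CPM. This is the pattern of male samples, although the methods name both sexes. Marrow oxaliplatin replicate 5 had the lowest Ddx3y of its tissue (26.7 CPM). CPM are counts scaled by the TMM method within a tissue unless another scale is named.

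Epo was nearly silent in the kidneys of vehicle-treated mice and abundant in every kidney after oxaliplatin. It had the largest log2 fold change of the 19293 genes tested in kidney. The count filter admitted Epo only through the oxaliplatin kidneys, since vehicle kidneys had at most 6 counts, so this rank is a description. In marrow a single count was found in all 10 libraries. In whole tissue, more cells that express a gene and more RNA per cell cannot be told apart, here and in all results that follow. The gene (ENSMUSG00000029711) lies on the minus strand of chromosome 5 in GRCm38, and its main transcript runs from 137483020 to 137485816. The annotated gene reaches 137533242 only because of 1 other transcript, whose first exon of 104 bases lies inside exons of Gnb2 on the same strand.

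The Epo promoter is shown because it belongs to the gene that changed most. It was read from RefSeq on GRCm38.p6 at chr5:137485767-137486066, minus strand, 250 bases before to 50 bases after the transcription start, and the capitals mark ACGTG or GCGTG on either strand (CACGT or CACGC on the strand printed), the HIF core.
Epo: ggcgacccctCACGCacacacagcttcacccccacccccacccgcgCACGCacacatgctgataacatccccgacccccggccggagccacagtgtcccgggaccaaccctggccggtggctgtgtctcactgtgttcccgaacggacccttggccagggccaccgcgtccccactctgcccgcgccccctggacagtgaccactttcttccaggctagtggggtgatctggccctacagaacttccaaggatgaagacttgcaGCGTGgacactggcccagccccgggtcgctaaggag
The window held 3 such cores, 240 and 204 bases before the start and 14 bases after it. It also held 1 copy of TGATAA, the core that GATA factors bind, 191 bases before the start. A match of either HIF core on either strand occurred in 43.8% of 32851 mouse promoters of this length, and of AGATAA or TGATAA in 18.6%, so a match is a description only. The well known hypoxia response element of Epo lies in an enhancer downstream of the gene, outside this window.

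Vehicle kidneys 1 to 5 had 2, 0, 6, 0 and 2 Epo counts, or 0.0747, 0, 0.259, 0 and 0.081 CPM. Oxaliplatin kidneys 1 to 5 had 5738, 838, 2886, 1882 and 7309 counts, or 205.9, 28.2, 103.8, 66.0 and 219.3 CPM. The groups did not overlap, and the lowest oxaliplatin kidney had 140 times the counts of the highest vehicle kidney. Summed over 5 libraries the counts were 10 and 18653, which gave a ratio of scaled rates of 1593 with a 95% interval from 866 to 3322 that covers counting error only. The ratio moved to 3249 when vehicle replicate 3, with its 6 counts, was left out. The fitted log2 fold change was 10.53 (SE 1.05, adjusted p = 1.9e-04), a value that depends on the prior count because vehicle kidneys were near 0. Epo entered this fit only because it was high in the oxaliplatin group. The exact two-sided permutation test over all divisions of the 10 mice into 5 and 5 gave p = 0.00794, the smallest it can give. Among the oxaliplatin kidneys Epo varied 7.77-fold (SD 84.8 CPM around a mean of 124.7, n = 5), and it made up between 0.00286% and 0.0236% of all counts. In marrow, 1 of 10 libraries, vehicle replicate 3, had a single Epo count. The floor of 3 counts per library was 0.0668 to 0.0975 CPM in marrow and 0.0900 to 0.130 CPM in kidney, so 4 of the 5 vehicle kidneys were also below it.

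**Figure D1:**
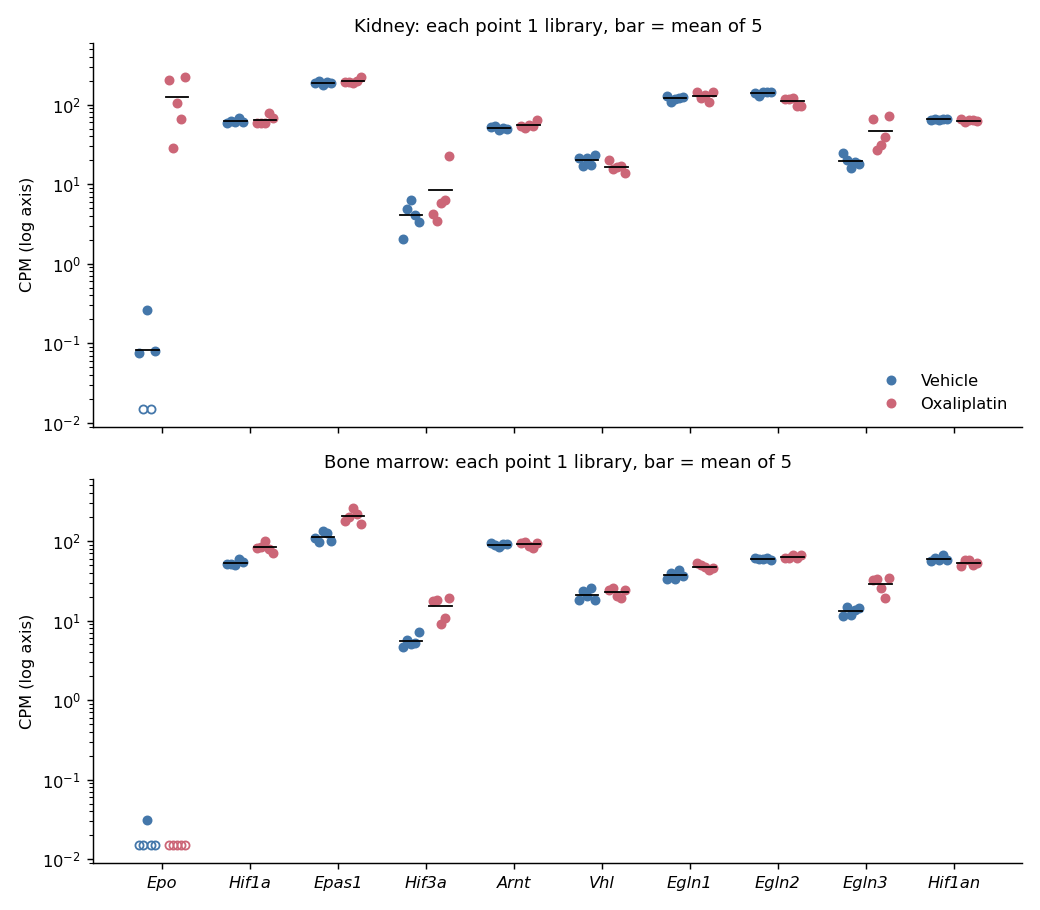
CPM on a log axis for the 10 genes in each library of kidney (top) and bone marrow (bottom), with the mean of 5 libraries as a bar. Open circles are libraries with 0 counts, drawn at the bottom of the axis. Epo in oxaliplatin kidneys lies between 28.2 and 219.3 CPM, far above all vehicle kidneys, while most other genes stay in a narrow band.

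The order of the oxaliplatin kidneys by Epo was replicate 5, 1, 3, 4 and 2. Egln3, itself a HIF target, was also highest in replicates 5 and 1, at 71.0 and 65.3 CPM, and lowest in replicate 2, at 26.9 CPM. The summed level of 9 erythroid markers ran in exactly the opposite order, at 98.6, 109.1, 236.1, 561.0 and 596.6 CPM from the highest to the lowest Epo. Slc4a1, a gene of this list, had 52.3, 62.7, 71.3, 86.7 and 106.3 CPM in that order, a large part of the sum in replicates 5 and 1. Which cells of the kidney these transcripts came from was not tested. Vehicle kidneys held 239.4 to 356.6 CPM of these erythroid markers, inside the range of the oxaliplatin kidneys. Of 7 tested markers 1 was called higher, beside 7.68% of all genes tested in kidney. The order of the oxaliplatin kidneys is a description of 5 libraries with no test.

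Markers of the cells known to make Epo moved in the same kidneys. Of 12 tested markers of renal interstitial fibroblasts and pericytes (13 listed, none at 0 in all libraries), 7 were called higher after oxaliplatin and none lower, where a call needs more than 1.5-fold and an adjusted p under 0.05. Over all genes tested in kidney 7.68% were called higher, and the median log2 fold change was 0.91 for the list and 0.02 for all genes. Their summed level was 462.2 to 554.2 CPM in vehicle and 664.4 to 878.9 CPM in oxaliplatin kidneys. The largest rises were of 2 pericyte genes that act on G protein signalling. Rgs4 had 0.518 to 1.14 CPM in vehicle kidneys and 18.2, 3.23, 9.67, 9.12 and 17.1 CPM in oxaliplatin kidneys 1 to 5 (log2 fold change 3.83, adjusted p = 6.3e-04). Rgs5 had 15.0 to 17.4 CPM in vehicle and 169.6, 48.2, 85.0, 137.6 and 211.3 CPM in oxaliplatin kidneys (2.96, adjusted p = 7.8e-04). Both were lowest in replicate 2, the kidney with the least Epo. The receptor gene Pdgfrb changed less, at 46.5 and 86.4 CPM (log2 fold change 0.89, adjusted p = 1.4e-06). A further 3 markers passed the adjusted p under 1.5-fold. Pdgfra (0.54, adjusted p = 3.4e-04) and Cspg4 (0.26, adjusted p = 0.0146) were higher, and Cxcl12 was lower, at 172.7 and 146.3 CPM (-0.24, adjusted p = 0.024). Nt5e at 81.0 and 84.8 CPM (0.07, adjusted p = 0.831) and Tcf21 (-0.03, adjusted p = 0.936) did not pass. The list was chosen with earlier results of these data known, so its counts are a description. The part of interstitial fibroblasts and pericytes in the Epo result was not tested.

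Markers of tubules and of other cells in kidney moved in both directions. Over all genes tested there, 7.68% were called higher and 3.81% lower. Of 9 proximal tubule markers 2 were called lower and none higher, Slc22a6, an organic anion transporter, at log2 fold change -1.0 (adjusted p = 0.00437) and Slc13a3, a dicarboxylate transporter, at -0.59 (adjusted p = 2.4e-05). A further 3 passed the adjusted p under 1.5-fold, with Cubn (0.32, adjusted p = 0.00802) and Slc5a12 (0.42, adjusted p = 0.00701) higher and Slc34a1 (-0.28, adjusted p = 0.0358) lower, and the median of the list was 0.09 with overlapping sums. None of 9 markers of the loop, distal tubule and collecting duct was called, but their summed level was higher without overlap, at 4812.0 to 5671.4 CPM with vehicle and 5939.7 to 6517.6 CPM with oxaliplatin, and 3 of them passed the adjusted p, all higher (Slc12a1 0.32, Aqp3 0.29 and Aqp2 0.36 on the log2 scale, adjusted p = 0.00238, 0.00301 and 0.0346). Of 8 tested leukocyte and macrophage markers 2 were called higher and 3 lower. Of 10 endothelial markers 3 were called higher and none lower, and their summed level was 543.4 to 580.9 CPM with vehicle and 673.7 to 1010 CPM with oxaliplatin. Adipocyte markers, of which 5 of 7 tested were called higher, had a summed level of 44.7 to 75.0 CPM in vehicle and 89.9 to 218.8 CPM in oxaliplatin kidneys. The last was highest in replicates 5 and 1 too (218.8 and 217.3 CPM). Of the tubular injury markers 2 of 5 tested were called higher, with Lcn2 at log2 fold change 2.06.

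Among the 10 members, 2 were called higher in kidney, Epo and Egln3, and none lower. Epo passed the count filter there only through the oxaliplatin kidneys, so its call is a description. Beside the 7.68% of all genes called higher in kidney, 3.81% were called lower. Egln2 passed the adjusted p, as did 29.4% of all genes in kidney, but not 1.5-fold, and the other 7 members did not pass. In marrow, 9 members could be tested, 4 were called higher (Hif1a, Epas1, Hif3a and Egln3) and none lower, beside 11.6% and 11.8% of all 22363 genes tested there. Egln1 passed the adjusted p in marrow, as did 33.1% of all genes, but not 1.5-fold. The groups did not overlap for 3 members in kidney and 5 in marrow, beside 20.7% and 24.9% of all genes.

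**Figure D2:**
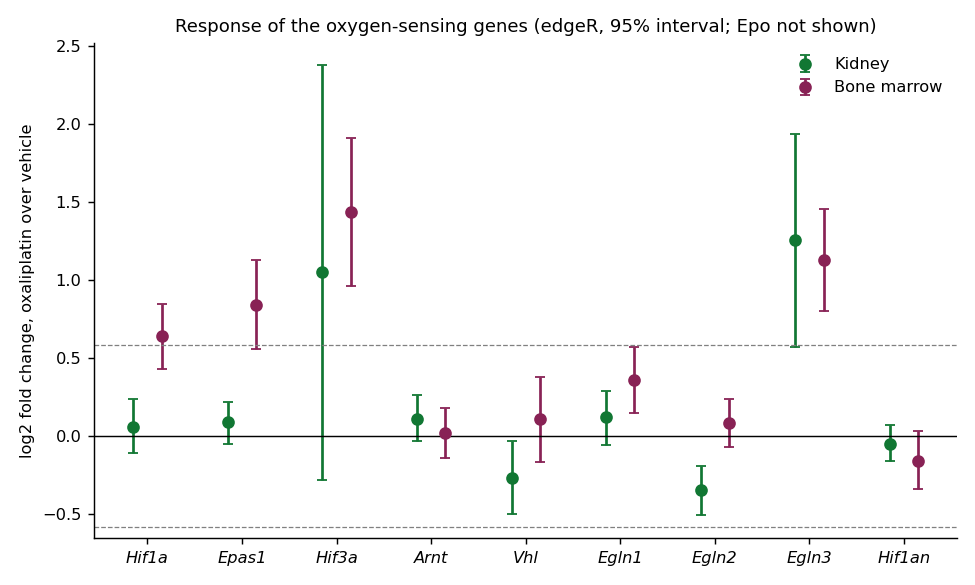
Log2 fold change of 9 members, oxaliplatin over vehicle, in kidney and marrow, from edgeR with 95% intervals and dashed lines at 1.5-fold. Epo is left out because its kidney value of 10.53 is off this scale. Hif1a and Epas1 lie near 0 in kidney and at 0.64 and 0.84 in marrow, and Egln3 lies above 1 in both.

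The alpha subunits rose in marrow and did not pass in kidney. Hif1a encodes the broadly expressed alpha subunit of HIF-1 (chromosome 12, 73901375 to 73947530, plus strand). In marrow it had 51.2, 51.6, 50.2, 59.3 and 53.7 CPM in vehicle libraries 1 to 5 and 81.4, 82.9, 100, 78.1 and 71.4 CPM in oxaliplatin libraries. Every oxaliplatin marrow lay above every vehicle marrow, with a log2 fold change of 0.64 (SE 0.098, adjusted p = 2.4e-04). Without oxaliplatin replicate 3 it was 0.56 (adjusted p = 7.5e-05), just short of 1.5-fold. In kidney the means were 61.9 ± 3.13 and 64.7 ± 9.07 CPM (SD, n = 5), with overlapping groups and a log2 fold change of 0.06 (95% interval -0.11 to 0.24, adjusted p = 0.603). Short stretches of its exons overlap Gm15283 on the other strand and Gm49321 on the same strand, by 330 and 148 bases, and the strand setting of the counting is not given in the sources used here.

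Epas1 encodes HIF-2 alpha, which is prominent in endothelium and in the Epo-producing cells of the kidney (chromosome 17, 86753700 to 86833410, plus strand). Marrow vehicle libraries had 110.3, 96.9, 134.5, 124.7 and 100.2 CPM, and oxaliplatin libraries 180.3, 198.7, 255.8, 218.7 and 163.7 CPM. The groups were separate, and the log2 fold change was 0.84 (SE 0.133, adjusted p = 3.0e-04). Replicate 3 had both the most Epas1 and the most Hif1a of the oxaliplatin marrows, and replicate 5 the least of both. In kidney Epas1 stayed between 177.8 and 198.9 CPM with vehicle and between 185.3 and 223.0 CPM with oxaliplatin, a log2 fold change of 0.09 (95% interval -0.05 to 0.22, adjusted p = 0.347).

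Hif3a encodes the third alpha subunit, whose short splice forms inhibit the others (chromosome 7, 17031507 to 17062427, minus strand). It was the scarcest alpha subunit. In marrow it had 4.65, 5.67, 5.01, 5.27 and 7.12 CPM with vehicle and 17.7, 18.3, 9.07, 10.9 and 19.2 CPM with oxaliplatin. The groups did not overlap, with a log2 fold change of 1.44 (SE 0.219, adjusted p = 2.4e-04), the largest of the members tested in marrow. In kidney it had 2.05, 4.84, 6.26, 4.11 and 3.36 CPM with vehicle and 4.16, 3.40, 5.83, 6.32 and 22.6 CPM with oxaliplatin. A single kidney, replicate 5, stood far above the rest, and the log2 fold change of 1.05 (95% interval -0.28 to 2.38, adjusted p = 0.215) fell to 0.27 (adjusted p = 0.531) without it. Counts per gene do not separate the splice forms.

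Arnt encodes the beta subunit shared by all alpha subunits (chromosome 3, 95434388 to 95497240, plus strand). Its means were 51.2 ± 2.14 and 55.3 ± 4.81 CPM in kidney and 89.5 ± 3.74 and 90.7 ± 5.80 CPM in marrow (vehicle and oxaliplatin, SD, n = 5). It passed in neither tissue, with log2 fold changes of 0.11 (95% interval -0.03 to 0.26) and 0.02 (-0.14 to 0.18).

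Corrected for exon length, Epas1 was the main alpha subunit mRNA in all 4 groups. In kidney it made up 75.1 ± 1.01% of the summed alpha subunit level with vehicle and 74.6 ± 2.47% with oxaliplatin (SD, n = 5). In marrow the shares were 67.1 ± 3.36% and 68.8 ± 2.94%. Within a library, the log2 ratio of Epas1 to Hif1a counts differed between treatments by 0.03 in kidney and 0.21 in marrow, and neither passed the exact permutation test (adjusted p = 0.786 and 0.114, over 6 ratios). In marrow this log2 ratio was 0.90 to 1.42 with vehicle and 1.15 to 1.49 with oxaliplatin. Hif3a was at most 6.47% of the alpha subunit level in any library.

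The 3 prolyl hydroxylases did not move together. Egln3 (PHD3), a HIF target that is strongly induced by hypoxia, rose in both tissues (chromosome 12, 54178981 to 54203860, minus strand). Kidney vehicle libraries had 24.8, 20.04, 15.9, 19.0 and 17.7 CPM and oxaliplatin libraries 65.3, 26.9, 31.0, 39.0 and 71.0 CPM. The lowest treated kidney lay just above the highest control, and the log2 fold change was 1.26 (SE 0.3, adjusted p = 0.0133). In marrow it had 11.3, 14.7, 11.7, 13.5 and 14.3 CPM with vehicle and 32.2, 32.9, 25.3, 19.5 and 33.8 CPM with oxaliplatin. These groups were also separate, with a log2 fold change of 1.13 (SE 0.155, adjusted p = 1.0e-04). The promoters of Egln3 and Hif3a, the members with the largest rises after Epo, are shown from RefSeq on GRCm38.p6, at chr12:54203825-54204124 and chr7:17062378-17062677, both minus strand, with the same window and capitals as for Epo.
Egln3: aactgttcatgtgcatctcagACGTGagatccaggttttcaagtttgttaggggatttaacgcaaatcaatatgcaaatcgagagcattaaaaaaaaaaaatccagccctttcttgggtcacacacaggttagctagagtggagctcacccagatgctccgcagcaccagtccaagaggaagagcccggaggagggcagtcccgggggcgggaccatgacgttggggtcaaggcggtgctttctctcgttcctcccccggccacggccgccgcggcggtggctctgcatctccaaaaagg
Hif3a: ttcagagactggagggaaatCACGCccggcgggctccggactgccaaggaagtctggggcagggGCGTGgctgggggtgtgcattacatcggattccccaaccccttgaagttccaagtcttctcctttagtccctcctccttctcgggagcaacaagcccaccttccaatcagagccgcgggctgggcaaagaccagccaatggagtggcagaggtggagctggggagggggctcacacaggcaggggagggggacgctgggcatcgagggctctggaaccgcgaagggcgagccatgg
Egln3 held 1 core, ACGTG, 229 bases before its start, and Hif3a held 2, both GCGTG, 230 and 186 bases before its start. Promoters of members that did not rise held from 0 matches, in Vhl and Hif1an, to 6, at the upstream start of Egln2, where a palindrome is counted on both strands.

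Egln2 (PHD1) fell in kidney and did not pass in marrow (chromosome 7, 27158658 to 27166802, minus strand). Kidney vehicle libraries had 141.1, 127.6, 144.1, 142.3 and 144.3 CPM, and oxaliplatin libraries 119.0, 116.0, 120.9, 96.9 and 95.5 CPM. All treated kidneys lay below all controls, a log2 fold change of -0.35 (SE 0.077, adjusted p = 0.00252) that is short of 1.5-fold. In marrow the means were 59.6 ± 1.49 and 63.2 ± 3.27 CPM (SD, n = 5; log2 fold change 0.08, 95% interval -0.07 to 0.24, adjusted p = 0.412). Replicates 4 and 5 had the least Egln2 of the treated kidneys.

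Egln1 (PHD2), the main hydroxylase of HIF-1 alpha in most cells, passed the adjusted p in marrow with a rise of 28.3%, short of 1.5-fold (chromosome 8, 124908587 to 124949324, minus strand). Its marrow values were 33.0, 39.3, 33.6, 43.5 and 36.4 CPM with vehicle and 52.8, 49.2, 47.1, 43.5 and 45.7 CPM with oxaliplatin. The lowest treated and the highest control marrow were almost level (43.53 and 43.47 CPM), and the log2 fold change was 0.36 (SE 0.097, adjusted p = 0.0118). In kidney the means were 119.6 ± 8.24 and 129.6 ± 15.7 CPM (SD, n = 5) and the log2 fold change was 0.12 (95% interval -0.06 to 0.29, adjusted p = 0.304).

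These changes shifted the make-up of the hydroxylase mRNAs toward Egln3. Corrected for exon length, the share of Egln3 among the 3 genes was 8.10 ± 1.31% with vehicle and 18.5 ± 6.27% with oxaliplatin in kidney, and 13.5 ± 1.30% and 23.0 ± 3.57% in marrow (SD, n = 5). Egln2 remained the largest share on average but went from 55.2 ± 1.55% to 42.6 ± 6.15% in kidney and from 58.3 ± 2.91% to 48.5 ± 3.37% in marrow. Ratios within a library do not depend on the scaling between libraries. The log2 ratio of Egln3 to Egln1 counts was higher after oxaliplatin by 1.05 in kidney and 0.74 in marrow, without overlap (exact permutation test, adjusted p = 0.0159 in both). The log2 ratio of Egln2 to Egln1 counts was lower, by -0.47 in kidney (exact permutation, adjusted p = 0.0159) and by -0.28 in marrow (exact permutation, adjusted p = 0.0357), where the groups overlapped and the call was lost in 7 of the 10 fits that left out 1 library.

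**Figure D3:**
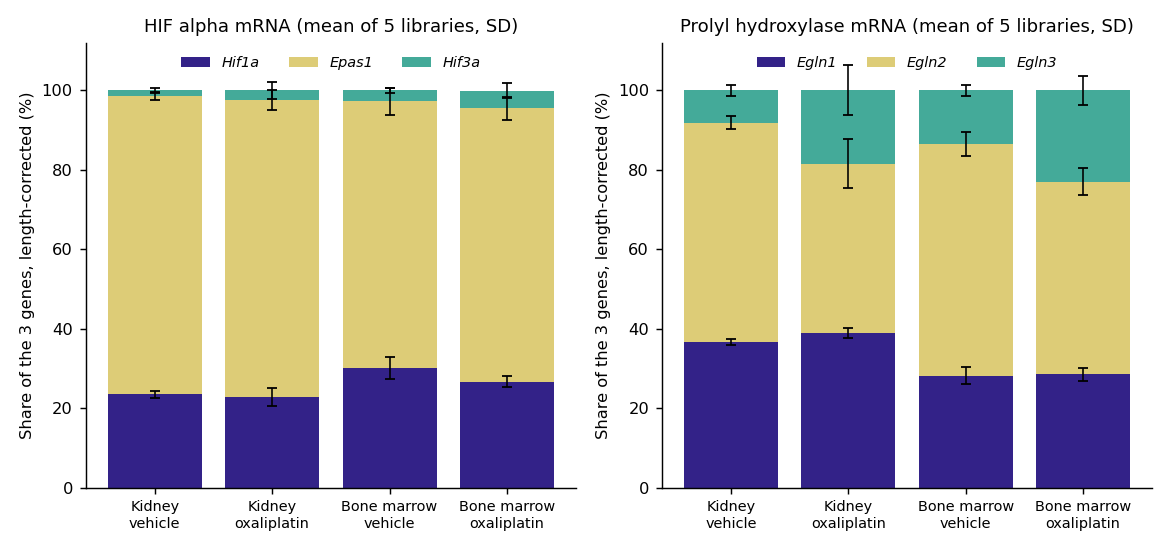
Share of each gene in the summed, length-corrected mRNA level of the 3 alpha subunits (left) and the 3 prolyl hydroxylases (right), as the mean of 5 libraries with SD. The alpha subunit shares barely differ between treatments, while Egln3 goes from 8.10% to 18.5% in kidney and from 13.5% to 23.0% in marrow.

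Hif1an and Vhl complete the sensor. Hif1an (chromosome 19, 44562850 to 44576274, plus strand) was the steadiest member in vehicle kidneys, with a coefficient of variation of 1.00%. Its means were 65.0 ± 0.65 and 63.0 ± 2.07 CPM in kidney and 59.3 ± 4.23 and 53.3 ± 4.18 CPM in marrow (SD, n = 5), with log2 fold changes of -0.05 (95% interval -0.16 to 0.07) and -0.16 (-0.34 to 0.03). Vhl, the substrate receptor of the ubiquitin ligase, lies on chromosome 6 (113623959 to 113631633, plus strand). It had 19.95 ± 2.73 and 16.6 ± 2.36 CPM in kidney (log2 fold change -0.27, adjusted p = 0.0813) and 21.2 ± 3.28 and 22.8 ± 2.84 CPM in marrow (0.11, adjusted p = 0.572). The kidney value passed the adjusted p when oxaliplatin replicate 1 (-0.34, adjusted p = 0.0274) or vehicle replicate 2 (-0.33, adjusted p = 0.0371) was left out.

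Of the 4 ligase subunits Elob, Eloc, Cul2 and Rbx1, none was called in either tissue, and Cul2, the scaffold, passed the adjusted p alone in opposite directions, at -0.23 in kidney and 0.38 in marrow on the log2 scale (adjusted p = 0.0239 and 0.048). Of 17 partners and regulators of HIF 1 was called higher and 1 lower in kidney, beside 7.68% and 3.81% of all genes, and 5 higher and 1 lower in marrow, beside 11.6% and 11.8%. The kidney counts are near those of genes in general. Hsp90ab1, a chaperone that stabilises HIF-1 alpha, fell in kidney from 949.7 to 608.3 CPM (log2 fold change -0.64, adjusted p = 1.0e-05). Cited2, which competes with HIF-1 alpha for the coactivator p300, rose in marrow from 116.2 to 204.7 CPM (0.82, adjusted p = 2.2e-04). Limd1, a scaffold that links VHL with the prolyl hydroxylases, fell there from 134.7 to 80.8 CPM (-0.74, adjusted p = 5.5e-05). The coactivator genes Ep300 and Crebbp were lower in marrow by less than 1.5-fold, at -0.49 and -0.51 on the log2 scale (adjusted p = 0.0121 and 0.00297).

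Of the transcription factors known to act on the Epo gene, 2 of 10 tested in kidney were called higher and none lower, beside 7.68% and 3.81% of all genes. A further 6 passed the adjusted p under 1.5-fold, in both directions, where 29.4% of all genes passed it at any fold. Wt1, which activates the Epo promoter in cell culture, had 11.6 CPM with vehicle and 20.5 CPM with oxaliplatin (log2 fold change 0.82, adjusted p = 3.5e-05, without overlap), and Nr2f1, a nuclear receptor gene, had 1.54 and 2.44 CPM (0.66, adjusted p = 0.0441). Hnf4a, which cooperates with HIF at the Epo enhancer, fell by less than 1.5-fold, from 1445.6 to 1123.7 CPM (-0.36, adjusted p = 0.00207). Gata2 and Gata3, of a family that can repress the Epo promoter, were at 0.38 and 0.53 on the log2 scale, also under 1.5-fold (adjusted p = 0.00408 and 0.00168). In marrow 1 of 9 tested was called, Rxra, at 0.60 (adjusted p = 0.0018). Of all genes tested there 11.6% were called higher and 11.8% lower, so this count is near the general share.

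Known HIF target genes rose in both tissues more often than they fell. Of 29 targets, all tested, 13 were called higher and none lower in kidney, and 16 higher and 1 lower in marrow, beside 7.68% and 3.81% of all genes in kidney and 11.6% and 11.8% in marrow. The median log2 fold change of the list was 0.75 in kidney and 0.79 in marrow, beside 0.02 and -0.04 for all genes tested. A further 4 passed the adjusted p under 1.5-fold in kidney. Of these Ak4 was lower (-0.47, adjusted p = 0.00246, without overlap), and Vegfa, P4ha2 and Fam162a were higher. The target called lower in marrow was Mxi1 (-0.59). The summed level of the 29 targets overlapped between treatments in both tissues. Like the other lists, this one was chosen with earlier results of these data known, so its counts are a description. The targets that led in kidney were Lox and Ppp1r3c. Lox, a collagen and elastin cross-linking enzyme, had 0.915 to 1.51 CPM in vehicle kidneys and 29.1, 5.22, 9.995, 12.98 and 34.2 CPM in oxaliplatin kidneys 1 to 5 (log2 fold change 4.06, adjusted p = 0.00136). Ppp1r3c, a glycogen-targeting subunit of protein phosphatase 1, had 0.173 to 1.33 CPM and then 14.5, 3.54, 6.90, 6.28 and 9.57 CPM (3.34, adjusted p = 0.00107). Replicates 1 and 5 were the highest for both and replicate 2 the lowest, as for Epo. In marrow Ppp1r3c was called as well (4.06, adjusted p = 2.6e-06), as was Angptl4, an inhibitor of lipoprotein lipase that adipocytes also make (2.58, adjusted p = 1.3e-05).

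The lists of targets called in the tissues differed by gene. Vegfa, the endothelial growth factor, was called in marrow (log2 fold change 0.98, adjusted p = 8.0e-05) but stayed under 1.5-fold in kidney (0.47, adjusted p = 0.0143). The glucose transporter Slc2a1 was called in both, at 0.75 (adjusted p = 0.0119) and 0.95 (adjusted p = 9.0e-04), as was the pyruvate dehydrogenase kinase Pdk1, at 1.08 (adjusted p = 0.0171) and 0.60 (adjusted p = 9.8e-04). Adm, which encodes a vasodilator peptide, did not pass in kidney (1.13, adjusted p = 0.0843) and was called in marrow (3.6, adjusted p = 6.5e-04). Car9, a carbonic anhydrase often used as a hypoxia marker, passed in neither (0.62 and -0.13, adjusted p = 0.189 and 0.674). A call in a single tissue does not show a difference between tissues, and that difference is not reported here for these targets. Many of them also answer to signals other than HIF.

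**Figure D4:**
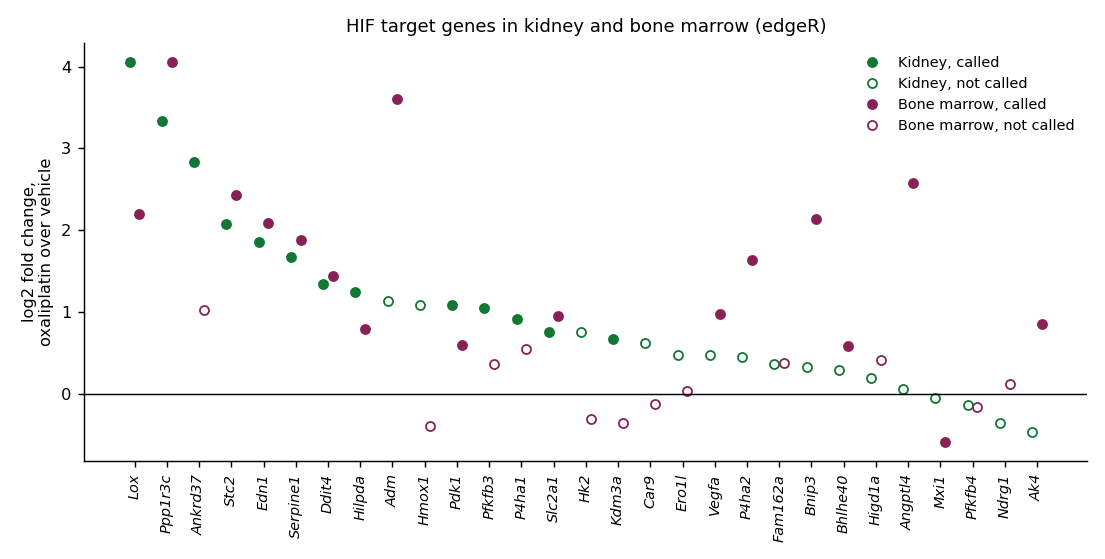
Log2 fold change of 29 HIF target genes, oxaliplatin over vehicle, in kidney and marrow, ordered by the kidney value. Filled points passed an adjusted p under 0.05 and 1.5-fold in edgeR. Lox and Ppp1r3c lead in kidney at 4.06 and 3.34, and the points of marrow follow another order.

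Cell type markers moved in marrow along with the HIF genes. Over all genes tested there, 11.6% were called higher and 11.8% lower. All 9 erythroid markers were called lower, with a median log2 fold change of -2.74 and a summed level that went from 24495.3 to 42241.5 CPM with vehicle to 3226.9 to 7767.2 CPM with oxaliplatin. Among them, Epor, the receptor for erythropoietin, went from 110.2 to 46.6 CPM (-1.24, adjusted p = 2.3e-05). All 8 adipocyte markers were called higher, with a summed level of 87.0 to 161.8 CPM in vehicle marrows and 3456.4, 1823.4, 3694.7, 3711.1 and 695.0 CPM in oxaliplatin marrows 1 to 5. Replicate 5, the lowest for adipocyte markers, was also the lowest of the treated marrows for Hif1a and Epas1, but the highest for Hif3a and Egln3.

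Endothelial cells, in which EPAS1 is abundant, had 7 of 10 markers called higher in marrow and none lower. The shares over all genes were 11.6% and 11.8%, here and for the other marrow lists below. Their summed level was 330.4 to 426.7 CPM with vehicle and 471.3 to 881.5 CPM with oxaliplatin, without overlap. Emcn and Robo4 led, with log2 fold changes of 1.14 and 1.17, while Pecam1 and Tek did not pass (0.36 and -0.39, adjusted p = 0.0658 and 0.0544). Marrow replicate 3, with the most Epas1, had an endothelial sum of 568.7 CPM, below replicates 1 and 4. In kidney the endothelial sum was also higher without overlap, and Epas1 was not called there. Of the other lists in marrow, 6 of 7 B cell markers were called lower, none of 9 neutrophil markers was called, and 3 of 9 leukocyte and macrophage markers, 5 of 12 tested interstitial markers and 4 of 5 skeletal muscle markers were called higher, none lower. No marker of these lists was at 0 in all libraries of a tissue. Every skeletal muscle marker had overlapping groups, and their sums were 9.52 to 93.0 CPM with vehicle and 39.5 to 700.6 CPM with oxaliplatin. The part of cell composition in the rises of Hif1a, Epas1, Hif3a and Egln3 was not tested.

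**Figure D5:**
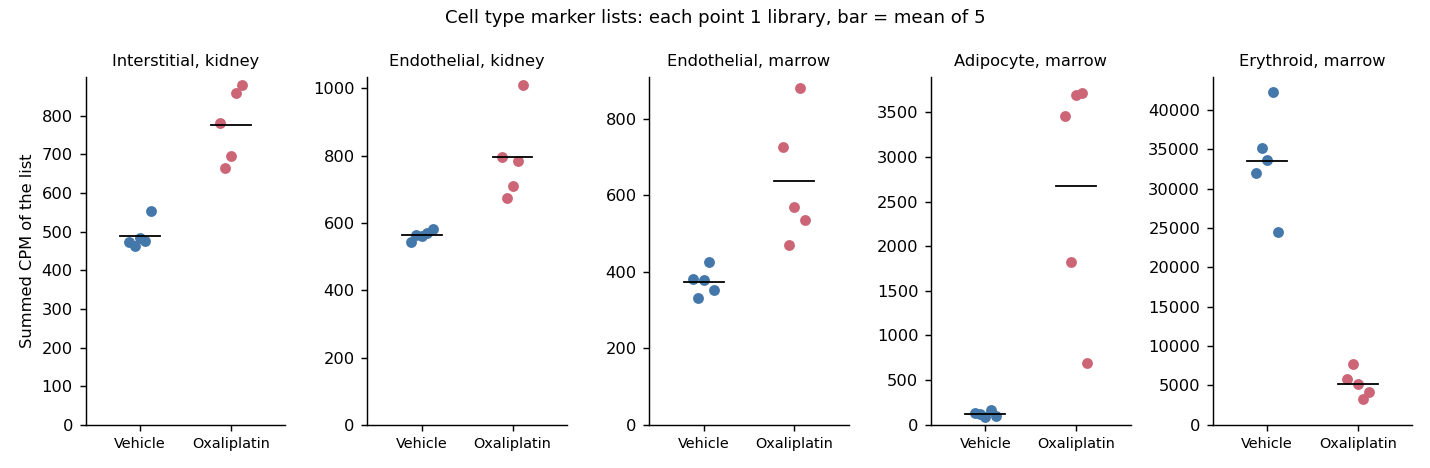
Summed CPM of 5 marker lists in each library, with the mean of 5 as a bar and each axis starting at 0. In marrow, adipocyte and endothelial sums lie higher and erythroid sums lower after oxaliplatin without overlap, and in kidney interstitial and endothelial sums lie higher.

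The responses of the members were compared between tissues in a fit of all 20 libraries. The change in kidney minus the change in marrow was -0.64 for Hif1a (95% interval -0.93 to -0.35, adjusted p = 0.00146), -0.83 for Epas1 (-1.16 to -0.49, adjusted p = 4.8e-04) and -0.49 for Egln2 (-0.72 to -0.26, adjusted p = 0.00193). These 3 of 9 members passed, beside 30.1% of the 24321 genes tested, so the share is that of genes in general. Egln3 had a difference of 0.07 with a wide interval (-0.56 to 0.70, adjusted p = 0.898), which leaves room for a difference either way. For Hif3a it was -0.44 (-1.61 to 0.72, adjusted p = 0.596), and -1.22 (adjusted p = 0.0164) without kidney oxaliplatin replicate 5. Vhl at -0.43 and Egln1 at -0.30 did not pass (adjusted p = 0.0671 and 0.0783), though both did without marrow vehicle replicate 4 (adjusted p = 0.0387 and 0.0391), and Vhl also without marrow oxaliplatin replicate 4, kidney oxaliplatin replicate 1 or kidney vehicle replicate 2 (adjusted p = 0.0296 to 0.0426). No estimate is given for Epo, since marrow had only 1 count.

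The tissues also differed before treatment. On the scale of the 20-library fit, vehicle kidney had more Egln1 (log2 difference 2.12), Egln2 (1.66), Epas1 (1.16), Egln3 (1.00), Hif1a (0.65), Hif1an (0.56) and Vhl (0.35) than vehicle marrow, and less Arnt (-0.38). Those 8 of 9 members passed an adjusted p under 0.05, beside 80.7% of all genes tested, and 7 were higher in kidney, beside 38.8%. Tissue and RNA extraction cannot be told apart because, per the labels, kidney RNA was extracted with a PureLink kit alone and marrow RNA with Trizol before the PureLink column. The Vhl difference (adjusted p = 0.0136) no longer passed without marrow vehicle replicate 1 (0.26, adjusted p = 0.0811), and it turned to -0.08 with library size as the only scaling. Nor did it pass with no filter (0.31, adjusted p = 0.0503) or with 10 counts required in every library (0.12, adjusted p = 0.356). With the Y-linked covariate it was 0.13 (adjusted p = 0.448). Hif3a did not differ detectably (95% interval -0.84 to 0.84). Levels per kilobase of exon on this scale ordered the vehicle kidney genes as Egln2 (57.4 ± 2.92 CPM per kb), Epas1 (38.6 ± 1.56) and Egln1 (38.3 ± 2.75), the last pair within their spread, then Hif1a (12.1 ± 0.579) and Hif1an (11.3 ± 0.0948), and then Egln3 (8.43 ± 1.5), Vhl (7.66 ± 1.05) and Arnt (7.35 ± 0.317), which lay within their spread, with Hif3a (0.706 ± 0.269) and Epo (0.112 ± 0.142) last. In oxaliplatin kidneys Epo stood first, at 167 ± 113 CPM per kb. In vehicle marrow the order began with Egln2 (18.2 ± 0.423) and Epas1 (17.3 ± 2.30), which lay within their spread, followed by Arnt (9.55 ± 0.468) and Egln1 (8.81 ± 0.933), then Hif1a (7.70 ± 0.46) and Hif1an (7.66 ± 0.442), each pair within its spread, and Vhl (6.02 ± 0.851) and Egln3 (4.21 ± 0.5). Hif3a (0.706 ± 0.129) and Epo (0.00627 ± 0.0140) were again lowest. In oxaliplatin marrow Epas1 came first, at 32.4 ± 6.91 CPM per kb, and Hif1a was at 12.5 ± 2.01 CPM per kb, next to 12.6 ± 1.66 in oxaliplatin kidney.

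The genes whose kidney profile was most like that of Epo were named by the highest Pearson r of log2 CPM over the 10 kidney libraries, among 1474 genes called in kidney whose mean log2 CPM was 1 or more. They were Emilin1 (r = 0.991), an elastic fibre glycoprotein, Sparc (0.989), a matrix glycoprotein, Zmat3 (0.987), a zinc finger gene induced by p53, Narf (0.987) and Ces2e (0.986), a carboxylesterase. All 5 were called higher after oxaliplatin, between 0.96 for Emilin1 and 2.89 for Ces2e on the log2 scale. These r are descriptions without a test, because the 10 libraries fall into the same 2 treatment groups for every gene. Among the members, r with Epo was highest for Egln3 (0.858) and lowest for Egln2 (-0.82).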

How the data were processed

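Total RNA of kidney and bone marrow was sequenced as 20 libraries. Raw counts per gene were deposited by the authors as 1 table a tissue, not normalized. Per the labels, ribosomal RNA was removed and random hexamers were used, whereas the methods name a SMARTer kit. The methods name STAR and Partek Flow with Ensembl release 101, and the submitters' processing notes name STAR, featureCounts and Salmon, so the counter is given in 2 ways. The strand setting and read filters are not given in the sources used here. Samples were grouped by the labels, which call libraries of a group biological replicates.

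Repeated identifiers with identical counts and 1 line without a value were left out of 55774 lines, leaving 55486 genes. Each tissue was fitted alone, and the tissue contrasts over 20 libraries, with filterByExpr (minimum count 10), TMM and edgeR 4.0.16 in R 4.3.3 with limma 3.58.1 (robust quasi-likelihood, two-sided), with Benjamini-Hochberg adjustment over all genes tested. A call means an adjusted p under 0.05 and more than 1.5-fold, and for the contrasts between tissues an adjusted p under 0.05. Where no other test is named, adjusted p values are from edgeR. Intervals are 95%, and those of counts and the floors of 3 counts cover counting error only. Ratios and Epo were tested with exact permutation in scipy 1.17.1. Annotation was GENCODE M21 on GRCm38 (55227 identifiers matched). RefSeq promoters matched 9 of 10 members, and Epas1 was not among them. Members and gene lists were chosen with earlier results of these data known. Genes named from a list were up to 2 with the largest rise and 2 with the largest fall among calls whose mean log2 CPM was 1 or more and whose groups did not overlap; other list genes were named after their values were seen.

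Alternatives were DESeq2 1.42.0, its size factors, library size alone, other filters, a fold of 2, a replicate block, a Y-linked covariate, a pseudocount of 0.5 for ratios, and each library left out. On simulated counts the steps recovered 96.9% of 98 genes changed 2-fold in kidney (18957 tested, 6 false calls) and 66.3% of 92 in marrow (21811 tested, 8 false calls). For the difference in response between tissues the steps recovered 50.9% of 106 (23807 tested, 6 false calls). The changed genes were drawn from well counted genes only. Same-numbered libraries deviated from their group means with r between -0.154 and 0.228, which shows no pairing by number. Such r cannot exclude that a kidney and a marrow library came from the same mouse, and the labels do not say. The main fits over 20 libraries treated all libraries as independent. Figures were drawn with matplotlib 3.10.9 in Python 3.11.15.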

Additional observations from a re-analysis of the deposited data

Results flagged for a closer look

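In kidney oxaliplatin replicate 5, Hif3a was at 22.6 CPM, while the other 4 libraries of the group had 3.40 to 6.32 CPM. In kidney vehicle replicate 2, Egln2 was at 127.6 CPM, below the 141.1 to 144.3 CPM of the others. Each lay far from its group for its range, by Dixon's criterion, in 2 of 38 groups of 5 tested, and chance alone marks about 1 in 20. Without the latter library the Egln2 fall remained past its threshold.

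The response differed between the tissues by a test of the difference itself for 3 members. Kidney minus marrow was -0.64 for Hif1a, -0.83 for Epas1 and -0.49 for Egln2 on the log2 scale.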

How the results depend on the processing

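Under DESeq2, its size factors, library size alone, no filter, the replicate block and the Y-linked covariate, 2 members were called in kidney and 4 in marrow, as in the main analysis. With at least 10 counts required in every library, Epo could not be tested and 1 member was called in kidney. With a fold of 2, 941 genes were called in kidney, and in marrow 3231 genes and 2 members. With each library left out in turn, 1761 to 2424 genes were called in kidney and 4725 to 5727 in marrow, with 2 members and 3 to 4 members (3 without marrow oxaliplatin replicate 3, when Hif1a was at 0.56). In the interaction 3 to 5 members passed, 5 without marrow vehicle replicate 4, when Egln1 (-0.36) and Vhl (-0.49) joined. With 10 counts in every library, 10089 genes differed by 1.5-fold between vehicle tissues, against 17733.

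Scaling by library size alone moved the median log2 fold change of all genes from 0.02 to 0.16 in kidney and from -0.04 to 0.11 in marrow. The share of calls that were higher went from 66.8% to 82.7% and from 49.6% to 63.4%. Under it Epas1 (0.22), Arnt (0.25) and Egln1 (0.25) in kidney and Egln2 (0.23) in marrow passed the adjusted p, Hif1an in kidney turned to 0.09, and Vhl between vehicle tissues to -0.08.

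Other changes of sign were all of values that did not pass. Hif1a in kidney was -0.01 without 1 library. In marrow, Arnt was -0.02 and Vhl -0.04 with the Y-linked covariate, and Arnt -0.01 to 0.05 with a library left out. With a library left out, the interaction went as low as -0.01 for Arnt, -0.13 for Egln3 (also -0.05 and -0.08, up to 0.21) and -0.03 for Hif1an (also 0.00), and the tissue difference of Hif3a lay between -0.20 and 0.17 (0.00, 0.06 and 0.11 among them), and was 0.02 with the covariate. The cause was not tested.

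Replicate numbers showed no pairing of the samples, and a replicate block left 2 members called in kidney and 4 in marrow. For the ratios a sign-flip test on same-numbered pairs has a smallest unadjusted p of 0.0625, so it could not pass: the Egln2 to Egln1 ratio was -0.47 and -0.28 and the Egln3 to Egln1 ratio 1.05 and 0.74 (kidney and marrow), each at adjusted p = 0.0938 with the exact test of the replicate block. Leaving out 1 library gave -0.52 to -0.37 and -0.34 to -0.23, 0.92 to 1.20 and 0.66 to 0.85, and for Epas1 to Hif1a 0.01 to 0.10 and 0.16 to 0.29. The last passed without kidney oxaliplatin replicate 4 (0.10) and without marrow vehicle replicate 3 (0.29). HIF targets called, an alternative chosen after seeing the data, numbered 11 to 17 in kidney and 13 to 17 in marrow over all settings, and interstitial markers 7 to 8.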
